A study of Dahlia pinnata with 6 samples.

Results

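miR156 is a single row of a small RNA count table from dahlia petals, chosen by its exact name out of 116 microRNA-named rows and 47083 rows in all. The petals came from the bicolor cultivar Yuino (labelled Dahlia pinnata, and D. variabilis in its growth notes), raised on compost soil in a greenhouse at 24°C. Both groups share this genotype, organ and greenhouse, and no treatment or age is given. The red group is the pigmented part of the petal and the white group the unpigmented part, dissected from bicolor petals, with 3 libraries each. The series asked whether flavonoid pigments hold back the making of 21-nt siRNAs by the Dicer-like enzyme DCL4. No label states that replicate libraries are from different plants; a p-value therefore reflects only how these 6 libraries vary, and some of that variation may be technical.

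miR156 is one of the most conserved plant microRNAs. It directs silencing of SQUAMOSA PROMOTER BINDING PROTEIN-LIKE (SPL) transcription factors, which promote the adult phase and flowering, and its own level falls as a plant ages. In Arabidopsis the SPL factor SPL9 also restrains anthocyanin genes by interfering with the MYB-bHLH activator complex, which ties miR156 to pigment synthesis in that species. miR172, which targets APETALA2-like factors, acts after miR156 in the same pathway and increases as miR156 falls. No SPL transcript is described here, since the contigs of the table carry no gene names, and no dahlia miR156 sequence was used here.

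The libraries held 3277753 to 3662222 tabulated reads, of which 124111 to 174240 lay in microRNA-named rows. No row was at 0 in red replicate 1, against 11093 to 12808 rows at 0 in each of the other libraries. The lowest count in red replicate 1 was 1, so every listed row had a read there. Names or contigs without a read in that library may thus be missing from the table. The filter on low counts left 7001 rows, 34 of them with microRNA names, and miR156 was among these. The names are taken as deposited and include bantam and let-7f, and among the tested rows miR-24 and miR-27. Whether each name stands for a dahlia microRNA was not tested, so ranks and medians over names compare names only. TMM factors, which correct library sizes for composition, ran from 0.845 in white replicate 2 to 1.10 in red replicate 1. The microRNA name miR647 stood apart in white replicate 2, at 7093 reads against 714 to 1308 in the other 5 libraries.

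miR156 was well covered, with at least 3100 reads in every library. Red replicates 1, 2 and 3 held 3100, 5110 and 3464 reads of it. White replicates 1, 2 and 3 held 3513, 4834 and 3196 reads. In both parts replicate 2 held the most reads, and the red and white ranges overlapped. As normalised counts (CPM, reads per 1000000 reads of the tested rows after TMM scaling), the red libraries stood at 799.3, 1485 and 1012 in the same order. The white libraries stood at 1043, 1744 and 950.5 CPM. The highest 2 of the 6 libraries were thus the replicate 2 library of each part, and the remaining 4 lay between 799.3 and 1043 CPM. The counting error was small beside these gaps, as the exact Poisson 95% interval of red replicate 1 ran from 771.4 to 827.9 CPM and that of red replicate 2 from 1445 to 1527 CPM. Such intervals cover counting error only, since reads amplified by PCR are not independent molecules.

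**Figure D1:**
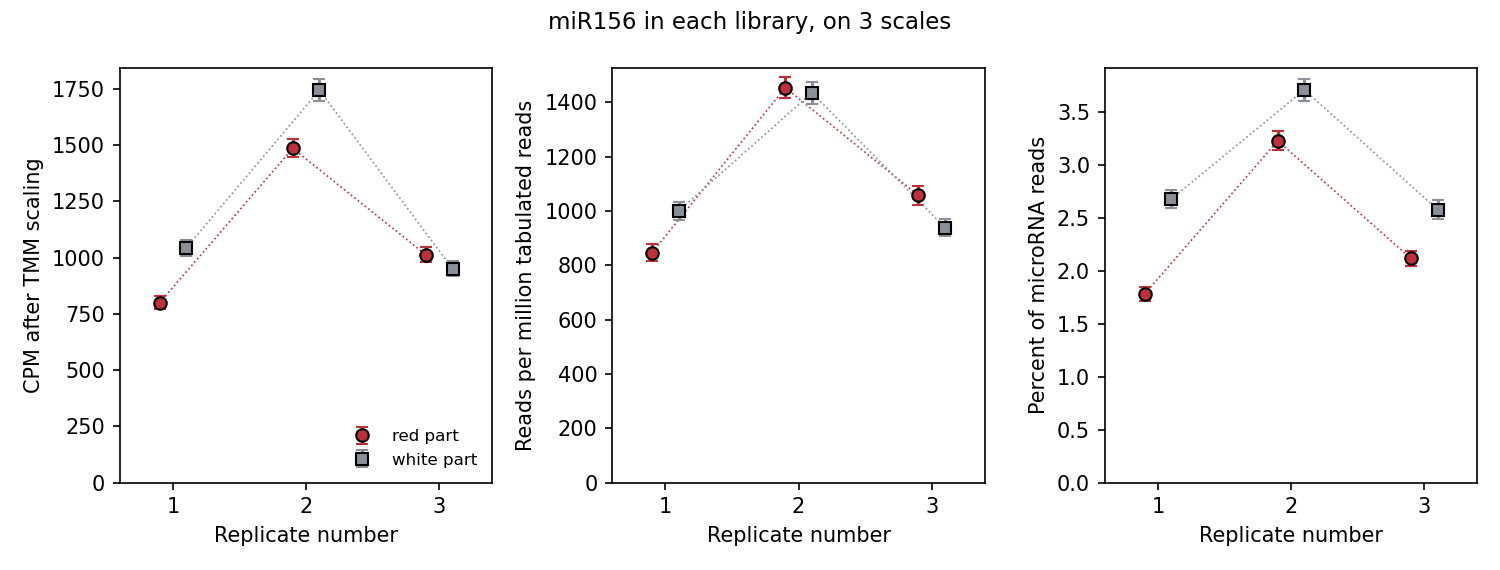
Level of miR156 in each library (vertical axes: CPM after TMM, reads per 1000000 tabulated reads, and percent of microRNA reads) by replicate number (horizontal axis), with circles for the red part and squares for the white part. Bars are exact Poisson 95% intervals of the reads and dotted lines join libraries of a part; on each scale both replicate 2 libraries lie above the other 4.

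miR156 was the 6th most abundant microRNA name by mean CPM over the 6 libraries. Its place by reads was 7, 5 and 6 in red replicates 1 to 3 and again 7, 5 and 6 in white replicates 1 to 3. Among all rows of the table, contigs included, it stood between place 50 and place 84. Row lengths are not given in the sources used here, so these places compare reads with no correction for length. The 3 most abundant names, miR396, miR159 and miR166, took 77.2% to 83.7% of the microRNA reads of a library, and miR156 took 1.78% to 3.71%. miR396, a regulator of GROWTH-REGULATING FACTOR genes and the most abundant of them, stood 15.4-fold above miR156 by mean CPM.

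The nearest neighbours of miR156 in this order, miR162, miR858 and miR167, did not separate from it. miR162, which targets DICER-LIKE 1, stood just above at a mean of 1495 CPM over the 6 libraries, and miR156 exceeded it in 1 library, white replicate 2. miR858, a regulator of MYB genes of the flavonoid pathway, followed at 1431 CPM. miR156 exceeded it in 2 libraries, both of them replicate 2. miR156 itself had a mean of 1172 ± 362.0 CPM (SD, n = 6). miR167, which targets AUXIN RESPONSE FACTOR genes, came next at 993.7 CPM, and miR156 exceeded it in 5 of 6 libraries, all but white replicate 1. miR647 had a mean of 691.9 CPM that rests on white replicate 2, where it reached 2559 CPM against 212.0 to 380.2 CPM in the other libraries. The ranges of miR156, miR162, miR858 and miR167 overlapped. Places 4 to 7 are thus an order of means and not of separate levels. miR156 exceeded miR647 in 5 libraries, and the overlap of their ranges rests on white replicate 2. miR171, at place 9, reached 929.2 and 871.8 CPM in red replicates 1 and 3, within the range of miR156.

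**Figure D2:**
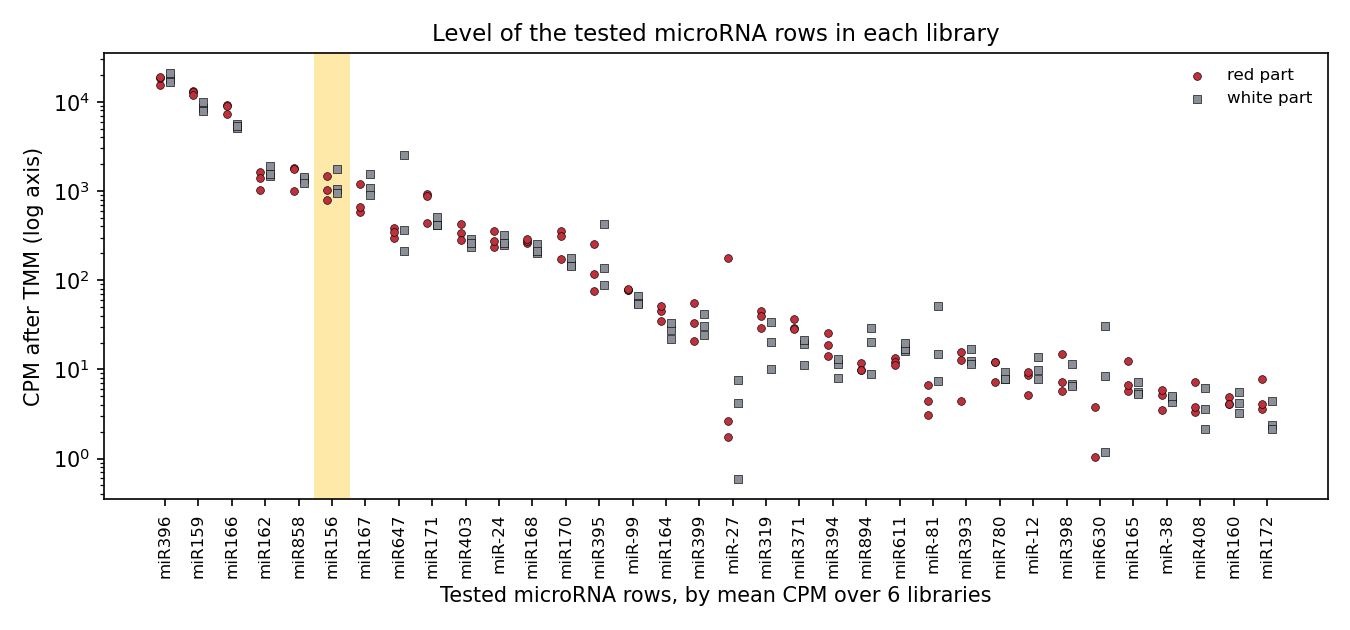
CPM after TMM (vertical log axis) of the 34 tested microRNA names in order of mean CPM (horizontal axis), with 1 point per library, circles for red and squares for white. miR156, shaded, is 6th, and its points overlap those of miR162, miR858 and miR167. The points of miR647 lie below those of miR156, except white replicate 2, which lies above them.

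The age-pathway list held 5 names, of which 3 were rows of the table and 2 passed the filter. miR156 and miR172 were tested, miR157 was too low to be tested, and miR529 and miR535 were not analysed here. miR157, a near-identical relative of miR156 with which it can share reads, had 5, 2 and 0 reads in red replicates 1 to 3 and 0, 3 and 2 reads in white replicates 1 to 3. It made up 0.052% of the reads of both names together, so adding it would raise the reads of miR156 by no more than 5 in any library. miR172 had 14, 14 and 27 reads in the red libraries and 8, 6 and 15 reads in the white ones, in the order of the replicate numbers. miR172 was thus low in all 6 libraries, and the mean CPM of miR156 was 286.3-fold above it. The red libraries of miR172 averaged 5.19 ± 2.35 CPM and the white ones 3.00 ± 1.27 CPM (SD over 3 libraries), a log2 fold change of -0.76 ± 0.44 SE that did not pass (edgeR adjusted p = 0.51). For miR172 replicate 3 was the highest number in each part, and the replicate number did not pass (edgeR adjusted p = 0.34). Neither tested member of the list passed the test between the parts.

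White and red differed in miR156 by less than the spread between libraries of a part. The red libraries averaged 1099 ± 351.2 CPM and the white ones 1246 ± 433.8 CPM (SD, n = 3 per part). The edgeR log2 fold change, white over red, was 0.18 ± 0.32 SE, with an unadjusted p of 0.59 and an adjusted p of 0.87 over the 7001 rows. Its 95% interval ran from -0.58 to 0.95, or 0.667-fold to 1.93-fold, and differences within it could not be told from none at this spread. Of all tested rows 1.06% passed this test (74 rows), and of the 34 microRNA names 1 passed (2.94%). The median log2 fold change was -0.01 over all tested rows and -0.18 over the microRNA names. In 17.8% of tested rows all libraries of one part lay above those of the other, and miR156 was not among those.

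Comparing parts within a number narrowed the interval without a call. White stood above red in replicate 1 (1043 against 799.3 CPM, a ratio of 1.31) and in replicate 2 (1744 against 1485 CPM, a ratio of 1.17). In replicate 3 white stood below red (950.5 against 1012 CPM, a ratio of 0.939). With the replicate number as a block, the log2 fold change was 0.18 ± 0.13 SE (edgeR adjusted p = 0.53), with a 95% interval from -0.09 to 0.44, or 0.939-fold to 1.36-fold. The same block raised the rows called between the parts from 74 to 338 (4.83%), and miR156 was not among them.

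The small excess in white also depended on the scale. Per 1000000 tabulated reads, without TMM, the red libraries averaged 1119 ± 308.3 and the white ones 1125 ± 270.4 (SD, n = 3 per part), a ratio of 1.01 (two-sided exact permutation p = 1). With library totals as the scaling, the edgeR log2 fold change was 0.0072 ± 0.21 SE (adjusted p = 0.99). As a share of microRNA reads, miR156 took 2.37% ± 0.76 of the red and 2.99% ± 0.63 of the white (SD, n = 3 per part; two-sided exact permutation p = 0.4, where 0.1 is the lowest that this design allows). Within each replicate number the white share exceeded the red one, at 2.67% against 1.78%, 3.71% against 3.22% and 2.58% against 2.11% for replicates 1, 2 and 3. Total microRNA reads were 165497 ± 8028 in red and 128626 ± 3936 in white, and their part in the higher share was not tested. With miR396, miR159 and miR166 taken out of the denominator, the share was 14.3% ± 4.5 for the red libraries and 14.6% ± 1.4 for the white ones (exact permutation p = 0.9). Leaving out white replicate 2 turned the log2 fold change to -0.14 (edgeR adjusted p = 0.90), and leaving out red replicate 2 raised it to 0.46 (adjusted p = 0.57).

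**Figure D3:**
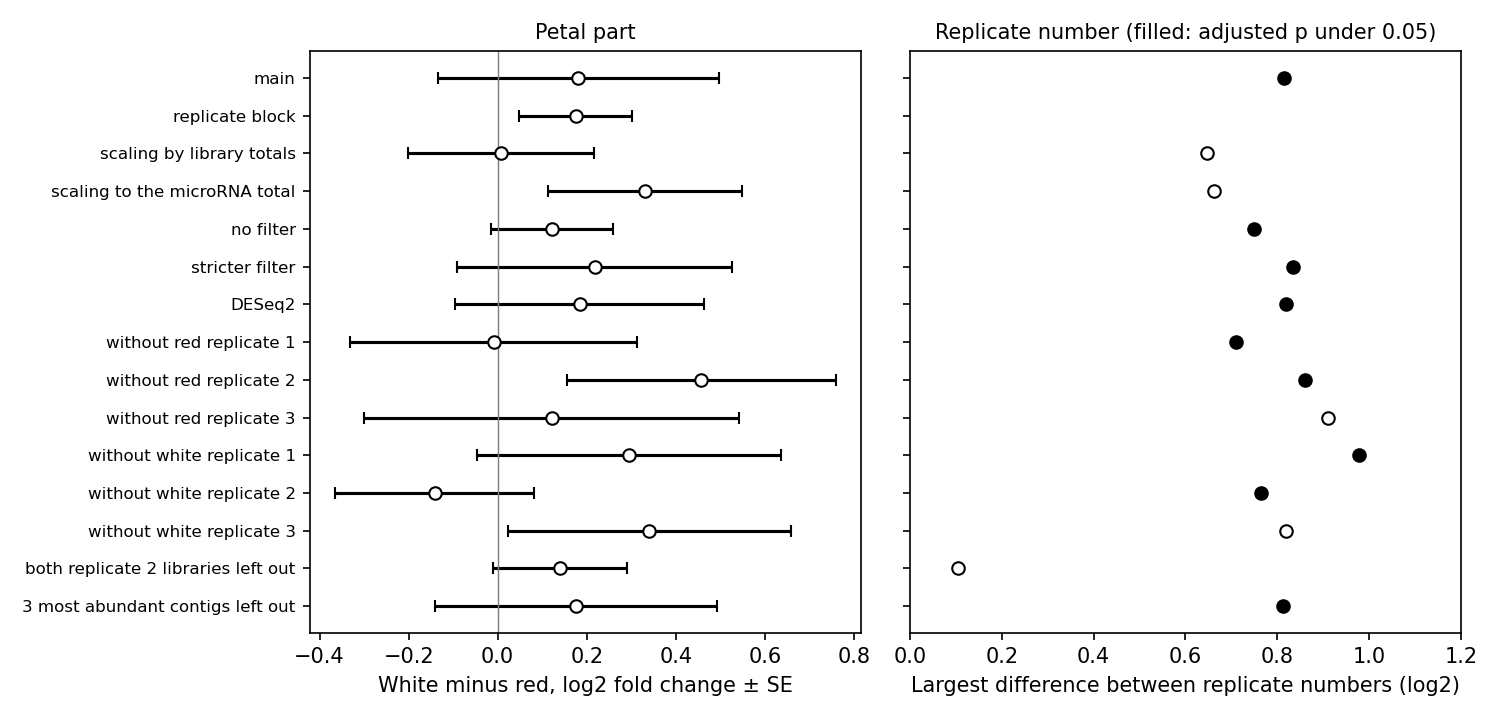
miR156 under each setting (rows): left, the log2 fold change of white over red with its SE; right, the largest difference between replicate numbers on the log2 scale, filled where the adjusted p is under 0.05 (the replicate block has no point there). The left values run from -0.14 to 0.46 with none called; the right values stay between 0.65 and 0.98 except at 0.11 without both replicate 2 libraries.

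The miR156 values differed by replicate number. In a model with both terms, the replicate number of miR156 passed the edgeR test (unadjusted p = 6.9e-05, adjusted p = 0.0078 over the 7001 rows), with 0.81 on the log2 scale between the highest and the lowest number. At this threshold 1.91% of all tested rows passed (134 rows), as did 4 of the 34 microRNA names (11.8%): miR156, miR167, miR399 and miR395. Replicate 2 exceeded replicate 1 by 0.81 ± 0.16 SE on the log2 scale (1.76-fold; edgeR adjusted p = 0.011 over all rows and the 3 contrasts of numbers). Of all tested rows 1.37% passed that contrast. Replicate 2 exceeded replicate 3 by 0.71 ± 0.16 SE (1.63-fold; edgeR adjusted p = 0.030, background 1.3%). Replicates 3 and 1 differed by 0.11 ± 0.16 SE (edgeR adjusted p = 0.88, background 0.671%).

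Replicate 2 was the highest number in both parts; whether its excess differs between them was not tested. In red, replicate 2 stood 1.86-fold above replicate 1 and 1.47-fold above replicate 3 in CPM. In white, it stood 1.67-fold above replicate 1 and 1.83-fold above replicate 3. Replicates 1 and 3 changed places between the parts, replicate 3 being the higher in red (1012 against 799.3 CPM) and replicate 1 in white (1043 against 950.5 CPM). Both replicate 2 libraries lay above the other 4 in 9.97% of all tested rows (698 rows) and in 3 of the 34 microRNA names: miR156, miR167 and miR647. On scales without TMM both replicate 2 libraries of miR156 again lay above the other 4, while the order within these sets changed. Per 1000000 tabulated reads, replicate 2 stood at 1454 in red and 1435 in white, and the other 4 libraries at 846.5 to 1057. Of microRNA reads, replicate 2 gave 3.22% in red and 3.71% in white, and the other 4 libraries 1.78% to 2.67%.

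The test of the replicate number depended on the scaling and on single libraries, while the difference itself moved less. With library totals the largest difference was 0.65 (edgeR adjusted p = 0.13) and with scaling to the microRNA total 0.66 (adjusted p = 0.24). Without red replicate 3 it was 0.91 (adjusted p = 0.13), and without white replicate 3 it was 0.82 (adjusted p = 0.15). Leaving out either replicate 2 library kept the call, at 0.86 (adjusted p = 0.0011) without the red and 0.77 (adjusted p = 0.010) without the white one. Without both, replicates 1 and 3 differed by 0.11 (adjusted p = 0.90), so the call rests on replicate 2. No label says whether a number marks a plant, a harvest or a preparation day, so these cannot be told apart.

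Sums of squares of log2 CPM gave the same division as a share. Of the variation of miR156 over the 6 libraries, 88.3% lay between replicate numbers, 5.12% between petal parts and 6.56% in neither. The number has 2 degrees of freedom and the part 1, so the shares are read against the same shares in other rows. The median share between numbers was 39.8% over all tested rows and 24.3% over the microRNA names, and 4.97% of all rows (348 rows) had a larger one than miR156. The median share between parts was 19.2% over all rows and 32.2% over the microRNA names. In 19 of the 34 names the number took a larger share than the part. The same count over all tested rows is not given here, and the 2 degrees of freedom of the number favour it. The count is therefore not read as a result about the names. With TMM, miR156 was at place 2 among the 34 by the share between numbers, behind miR399 (91.4%) and ahead of miR395 (84.4%). miR399 acts on the ubiquitin-conjugating enzyme PHO2 in phosphate supply, and miR395 on sulphate assimilation and transport. With library totals the share between numbers in miR156 was 91.7%, place 1 among the 34 names, and 2.94% of all rows (206 rows) had a larger one. With scaling to the microRNA total it was 68.8%, place 4, with 25.6% between parts, and 18.5% of all rows (1295 rows) had a larger one. The share was 12.0% without replicate 2, and 94.3% or 86.9% without replicate 1 or 3. The 2 replicate 2 libraries were already seen to be the highest for miR156. These values therefore describe where the share lies and add no support to it.

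**Figure D4:**
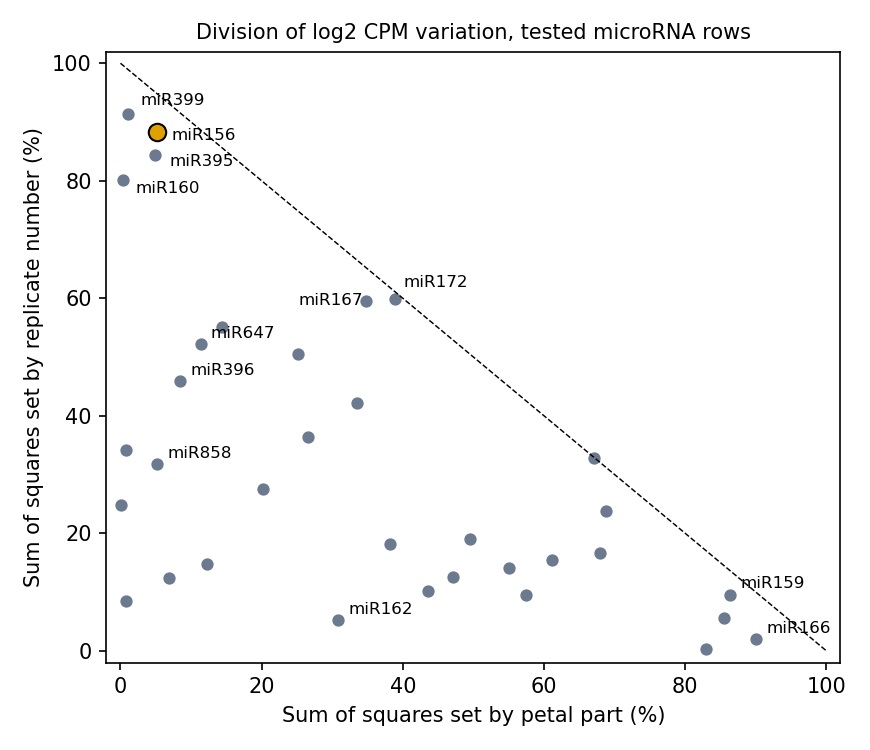
Percent of the sum of squares of log2 CPM set by petal part (horizontal axis) and by replicate number (vertical axis) for the 34 tested microRNA names, 1 point each, with miR156 as the larger point. The dashed line marks where both add to 100%; miR156 lies at 5.12% and 88.3%, near miR399 and miR395, and miR166 at the opposite end at 90.1% between parts.

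These 3 names did not share an order of numbers. miR399 had 130, 71 and 188 reads in red replicates 1 to 3 and 104, 67 and 140 reads in white replicates 1 to 3. Replicate 2 was thus the lowest number for miR399 in both parts, where it was the highest for miR156, and the number passed for it too (edgeR adjusted p = 0.023). miR395 had 454, 260 and 870 reads in red and 294, 375 and 1429 reads in white, in the same order. Replicate 3 was the highest for miR395 in both parts (edgeR adjusted p = 0.045 for the number). Over the 34 names replicate 1 had the highest mean of log2 CPM in 8, replicate 2 in 15 and replicate 3 in 11, against 30.8%, 35.6% and 33.6% of all tested rows. The same number was highest in both parts for 42.4% of all tested rows and for 11 of the 34 names.

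Likeness to miR156 was measured by Pearson's r of log2 CPM over the 6 libraries, which share scaling factors and replicate numbers. It is a description without a test. The median r of the other 33 names was 0.03, with 18 above 0. miR167 was the most alike (r = 0.89), followed by miR396 (r = 0.84) and the name miR-12 (r = 0.81), a row of only 20 to 38 reads per library. In reads, however, miR396 was not highest at replicate 2 in either part. Replicates 1 to 3 held 59384, 63024 and 64827 of its reads in red and 60974, 57770 and 56042 in white. White replicate 2 had the lowest TMM factor (0.845), and the part of the scaling in this r was not tested. The least alike were miR160 (r = -0.69), a row of 9 to 19 reads per library that like miR167 targets AUXIN RESPONSE FACTOR genes, and miR399 (r = -0.69).

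miR167 had the same highest number as miR156 in both parts. Red replicates 1, 2 and 3 held 2230, 4136 and 2251 reads of miR167. White replicates 1, 2 and 3 held 3623, 4266 and 3067 reads. Replicate 2 was again the highest in each part, and the largest difference between numbers was 0.82 on the log2 scale (edgeR adjusted p = 0.0068). Each white library of miR167 exceeded the red library of its number, at 0.53 ± 0.34 SE on the log2 scale without the block (edgeR adjusted p = 0.60) and 0.58 ± 0.13 SE with it (edgeR adjusted p = 0.014). The ratio of miR156 reads to miR167 reads was 1.39, 1.24 and 1.54 in red replicates 1 to 3 and 0.970, 1.13 and 1.04 in white replicates 1 to 3. The 3 red ratios thus all exceeded the 3 white ones, with means of 1.39 ± 0.15 and 1.05 ± 0.08 (SD, n = 3 per part). The two-sided exact permutation p was 0.1, the lowest that 3 libraries against 3 allow, or 0.35 after adjustment over 7 ratios. The test could not fall under 0.05 whatever the values. It therefore cannot decide whether miR156 and miR167 differ in their change between the parts.

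Ratios to other abundant microRNAs, which need no library scaling, set the same libraries apart in part. miR156 reads per miR396 read were 0.0522, 0.0811 and 0.0534 in red replicates 1 to 3 and 0.0576, 0.0837 and 0.0570 in white replicates 1 to 3. Both replicate 2 libraries stood above the other 4, and the parts did not differ beyond their spread (red mean 0.0622 ± 0.0163, white mean 0.0661 ± 0.0152, SD, n = 3 per part; exact permutation p = 0.5, adjusted 0.88). Of the 7 ratios to the other names among the 8 most abundant, 3 had both replicate 2 libraries on top, those to miR396, miR162 and miR858. The ratio to miR858 reached 1.49 in red replicate 2 and 1.22 in white replicate 2 against 0.446 to 0.783 elsewhere. miR858 itself was low in red replicate 2, with 3426 reads where red replicates 1 and 3 had 6954 and 6071, and its part in the ratio was not tested. The ratios to miR159 and miR166 put white replicate 1 above red replicate 2. The ratio to miR159 averaged 0.0877 ± 0.0277 over the red libraries and 0.141 ± 0.031 over the white ones (SD, n = 3 per part; exact permutation p = 0.1, adjusted 0.35), with fewer miR159 reads in each white library (26303 to 28365) than in each red one (40645 to 50511).

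**Figure D5:**
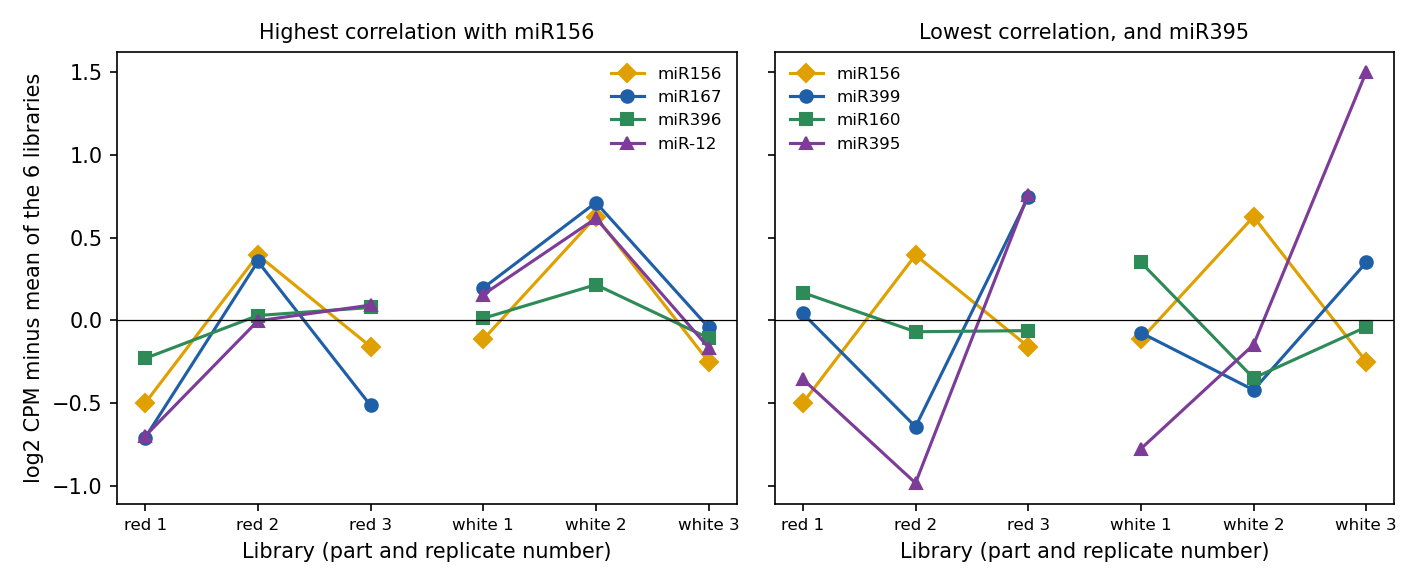
log2 CPM minus its mean over the 6 libraries (vertical axis) in each library (horizontal axis) for miR156 with the 3 most correlated names (left) and with the 2 least correlated names and miR395 (right). miR156 and miR167 peak at replicate 2 in both parts; miR399 is lowest there and miR395 is highest at replicate 3.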

How the data were processed

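Small RNA was sequenced from the red and the white part of petals, in 3 libraries each, grouped by the sample titles. The authors deposited raw counts of reads per row; cutadapt and Bowtie2 are named in the submitters' processing notes, while versions, read lengths and the assignment of reads that match several rows are not given in the sources used here. MicroRNA names have at most 6 characters, and the names miR-9-, miR-7- and let-7- end in a hyphen, as if longer names had been cut. A longer number could thus have been shortened into another name. The name miR156 has 6 characters, so its row may also hold reads of longer names that begin alike. White was compared with red, and replicate numbers with each other, by quasi-likelihood tests (edgeR 4.0.16, R 4.3.3) on all rows passing a minimum count of 10, with TMM scaling and Benjamini-Hochberg adjustment over these rows at a threshold of 0.05. CPM are counts per 1000000 reads of the tested rows after TMM. Shares and ratios of miR156 were compared between the parts with exact permutation tests over libraries (two-sided, scipy 1.17.1). The scripts were tested on simulated data.

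Deviations from the part means correlated across rows at 0.20, 0.29 and 0.20 between same-numbered red and white libraries, all above the limit of 0.1 for treating the numbers as pairs. The pairing rests on the numbers in the titles and on these correlations, since no label says what a number marks. The main test between the parts was left without the block, because the labels state only the petal part as a design. The exact permutation tests of shares and ratios were also unpaired, apart from the sign flips given below. No libraries of a part agreed within sampling noise (lowest chi-square per degree of freedom 4.82). Alternatives were other scalings, filters, the replicate block, DESeq2 1.42.0 and left-out libraries.

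The microRNA, its lists and tests were chosen with earlier results of these data known. The main rows were named by a rule: the age-pathway list, the 2 microRNA rows on either side of miR156 by level, the most abundant one, the 3 most and 2 least correlated with miR156, and the 3 with the largest replicate share. Outside this rule, miR159, miR166 and miR171 were named for their level, ratios or part share. Some further names, such as bantam and let-7f, were given only as examples of names. The contrasts of replicate numbers, the ratios to other microRNAs and the runs without both replicate 2 libraries or the 3 most abundant contigs were added after seeing the data.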

Additional observations from a re-analysis of the deposited data

How the results depend on the processing

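The fold change of miR156 between the parts was not called under any of 14 alternatives (edgeR or DESeq2 adjusted p from 0.53 to 0.99), and was above 0 in 12 of them. With 1 library left out it lay between -0.14 and 0.46, and turned to -0.009 without red replicate 1 and to -0.14 without white replicate 2. With the replicate number as a block it was 0.18, and the block gave 338 rows changed between the parts. The call of the replicate number held in 8 of 13 alternatives. It was lost with library totals (0.65), with scaling to the microRNA total (0.66), without both replicate 2 libraries (0.11) and without either replicate 3 library; with 1 library left out the largest difference ranged from 0.71 to 0.98. These causes were not tested, except that leaving out libraries also leaves fewer residual degrees of freedom. The 74 rows changed between the parts became 153 with library totals, 135 with scaling to the microRNA total and 254 with no filter, and ranged from 35 to 176 with 1 library left out. The 134 rows differing by number became 79 with library totals, 77 with the stricter filter, 244 with no filter and 71 with DESeq2, and ranged from 30 to 345 with 1 library left out. DESeq2 gave no adjusted p for 3936 of the 7001 rows in this test, so its count covers fewer rows. The place of miR156 was 6 under each alternative run. Its share of microRNA reads was higher in white by 0.61 percentage points, and by 0.25 to 1.04 with 1 library left out; as a replicate block, exact sign flips of the 3 paired differences gave p = 0.25, the smallest they allow. Depth limits miR157 and miR172, not miR156.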
